A study of Mus musculus with 4 samples.

Results

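The P2X family, the ATP-gated cation channels encoded by P2rx1 to P2rx7, was followed across the mouse amygdala with and without deletion of 1 of its members, P2rx7. Members were all array probes named for these 7 genes, among 28632 names on the array, and P2rx6 carries its older name P2rxl1 in the files. The 7 genes had 11 probes among 41174, and 9 probes of 6 genes had enough signal to be tested. The labels give 4 groups of 4 mice: wild-type mice and P2X7R KO (knockout) mice, each given saline or LPS, the bacterial lipopolysaccharide that triggers innate immune signalling. All were C57BL/6J males of 10 weeks. The whole amygdala was taken 6 h after an intraperitoneal dose of 7.5 µg per mouse, stated elsewhere in the labels as 250 µg/kg, or of saline. Each group had 4 single-colour arrays of cRNA. The labels name neither the knockout allele nor the mouse behind each array, so p-values here reflect how much arrays varied within a group, which may be technical.

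P2X channels open when extracellular ATP binds, and let sodium and calcium enter the cell. Each channel is built from several subunits, alike or mixed, and each subunit crosses the membrane with a pair of segments around a large extracellular loop. P2X7 needs far more ATP than its relatives. In microglia and macrophages its opening lowers intracellular potassium, which activates the NLRP3 inflammasome and the release of interleukin-1β. P2X2 and P2X3 form the channels of sensory neurons, P2X4 is found in microglia and in neurons, and P2X6 acts mainly as a partner of other subunits.

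The probes on which the results turn can be placed on the transcripts from the files. The genes P2rx7 and P2rx4 lie side by side on chromosome 5, with 0 other coding genes between them in the GRCm38.p6 gene table, and the nearest of their probes are 43.6 kb apart. P2rx2 lies on the same chromosome, 12.4 Mb from P2rx7. Sequences of 3 of the probes are shown because they read the same chromosome with different outcomes in the reported fit: P2rx7 upstream, whose signal did not separate the genotypes, P2rx4 upstream, whose signal was lower in knockout after saline, and P2rx2, whose signal was higher. The P2rx4 upstream call was not kept in all settings run, and its sign turned with another background correction. The downstream P2rx4 probe read higher in knockout. They are printed 5′ to 3′ as in the array files, with G and C in capitals to show the base composition, which bears on hybridisation.
P2rx7 upstream: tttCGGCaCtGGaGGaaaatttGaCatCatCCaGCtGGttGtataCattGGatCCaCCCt
P2rx4 upstream: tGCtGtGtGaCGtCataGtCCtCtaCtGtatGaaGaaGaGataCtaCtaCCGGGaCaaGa
P2rx2: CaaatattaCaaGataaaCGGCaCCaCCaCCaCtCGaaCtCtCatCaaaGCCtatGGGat

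In the files' coordinates (mouse build mm9), the 60-base upstream P2rx7 probe (A_51_P506733) spans chr5:123120528-123123413 on the plus strand. That is 2886 genomic bases, so the probe crosses an exon junction. The downstream P2rx7 probe (A_52_P393314) lies 10.8 kb further on, at chr5:123134194-123134253, and it has 0 open reading frames on its strand, against 2 for the upstream probe. The P2rx4 probes lie at chr5:123177761-123177820 (upstream, A_52_P265524) and chr5:123178612-123178671 (downstream, A_51_P308275), both on the plus strand. The P2rx2 probe (A_51_P498526) lies at chr5:110769903-110769962 on the minus strand. The P2rx3 probe that was tested (A_51_P116326) lies at chr2:84838898-84838957 on the minus strand, and P2rx5 (A_51_P519420) at chr11:72985662-72985721 on the plus strand. The P2rx6 probes lie on the plus strand of chromosome 16, at 17571293 to 17571352 (upstream, A_51_P115346) and at 17577793 to 17577852 (downstream, A_52_P478159). P2rx7 upstream and P2rx4 upstream have 27 G or C bases each, P2rx2 has 26 and P2rx7 downstream has 22. No genome or exon annotation of this build was used here, so exon, intron and untranslated parts are not stated.

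The 75th percentile of intensity ranged from 345.9 to 1164.7 over the 16 arrays, and the share of probes detected well above background from 58.1% to 71.9%. Wild-type arrays came from slides 1 and 2 and the first scan session in the file headers, knockout arrays from slides 3 and 4 and the second, so slide and genotype cannot be told apart. Microglial markers (16 of 16 measured) had mean levels of −0.89 to −0.02 in wild-type saline, −1.27 to −0.74 in wild-type LPS, −0.31 to −0.03 in knockout saline and −1.08 to −0.70 in knockout LPS. Oligodendrocyte markers (13 of 13 measured) ranged from 0.31 to 1.52 and from −0.22 to 1.32 in the wild-type groups, against −0.14 to 0.31 and −0.34 to −0.20 in the knockout groups. Markers of striatum and central amygdala (10 of 10 measured) ranged from 0.72 to 1.42 and from 0.40 to 1.86 in wild type, against −0.47 to −0.20 and 0.03 to 0.29 in knockout. The part of these shifts in the P2X results was not tested. In bulk tissue, fewer cells of a type and less RNA per cell cannot be told apart.

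**Figure D1:**
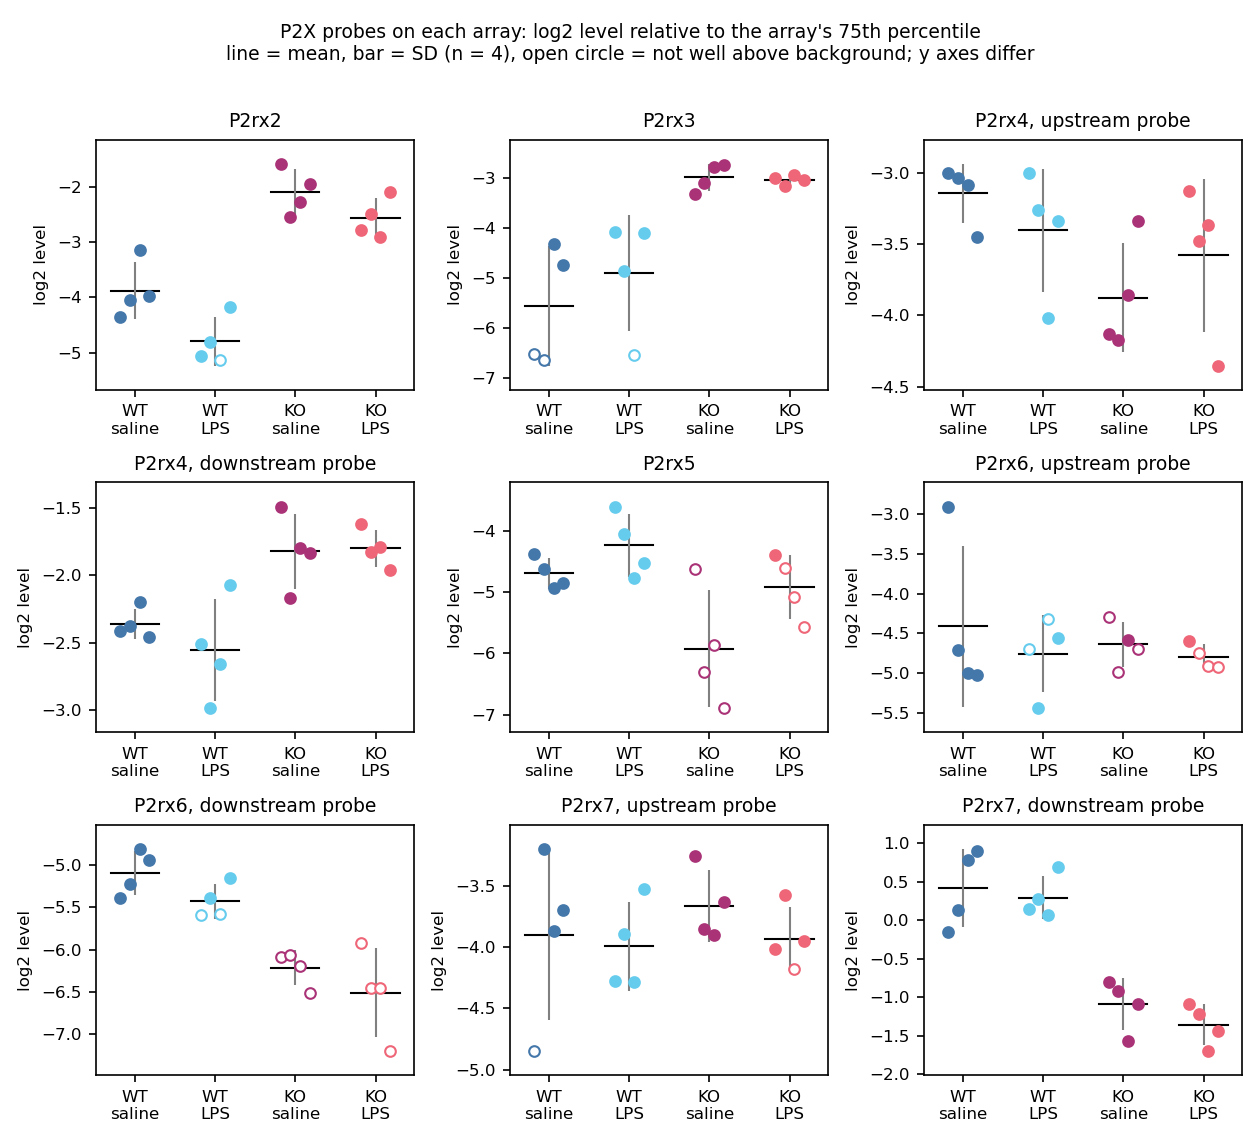
Log2 level (y axis, set against each array's 75th percentile) of each tested P2X probe on each of the 4 arrays of the 4 groups (x axis), with the mean as a line, the SD as a bar and open circles for spots not well above background. All 8 knockout arrays lie above all 8 wild-type arrays for P2rx2 and P2rx3, and below them for the downstream probes of P2rx6 and P2rx7.

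The comparison of knockout with wild type asked how expression of the family differed between arrays of the 2 genotypes. Slide and scan session go with genotype, so loss of the receptor cannot be told apart from them in these differences. P2rx2 and P2rx3 were higher in knockout amygdala after saline and again after LPS, and P2rx4 was higher on its downstream probe. The upstream P2rx4 probe was called lower after saline, and neither P2rx4 call after saline was kept in all settings run. The downstream probe of P2rx7 was lower in both states. That of P2rx6 also read lower, from knockout spots not well above background, but with normexp background correction in place of the scanner software's its difference turned to 1.29 after saline and 0.30 after LPS. After saline 7 of 9 probes were called at an adjusted p under 0.05 (limma, Benjamini-Hochberg over all 28347 probes kept), 3 higher and 4 lower, where 52.1% of all probes kept were called, 26.5% higher and 25.5% lower. After LPS 5 of 9 were called, 3 higher and 2 lower, against 48.4% of all probes, 24% higher and 24.4% lower. Arrays of the genotypes did not overlap for 5 of 9 probes in either state, against 47.2% of all probes after saline and 52.1% after LPS. Those shares of all probes are the level against which the members' counts are to be read. The median difference of the 9 probes was −0.23 (log2) after saline and −0.04 after LPS, beside −0.02 and −0.03 over all probes. P2rx5 passed the filter on dim probes through the wild-type groups only, and both P2rx6 probes through wild-type saline only. The counts and medians over tested probes are thus not those of all members. The lower calls after saline include P2rx5 and P2rx6 downstream, and those after LPS include P2rx6 downstream. P2rx6 downstream is also among the probes without overlap. For P2rx5 and P2rx6 downstream these calls are a description and not a test. Both comparisons share 1 estimate of the spread.

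**Figure D2:**
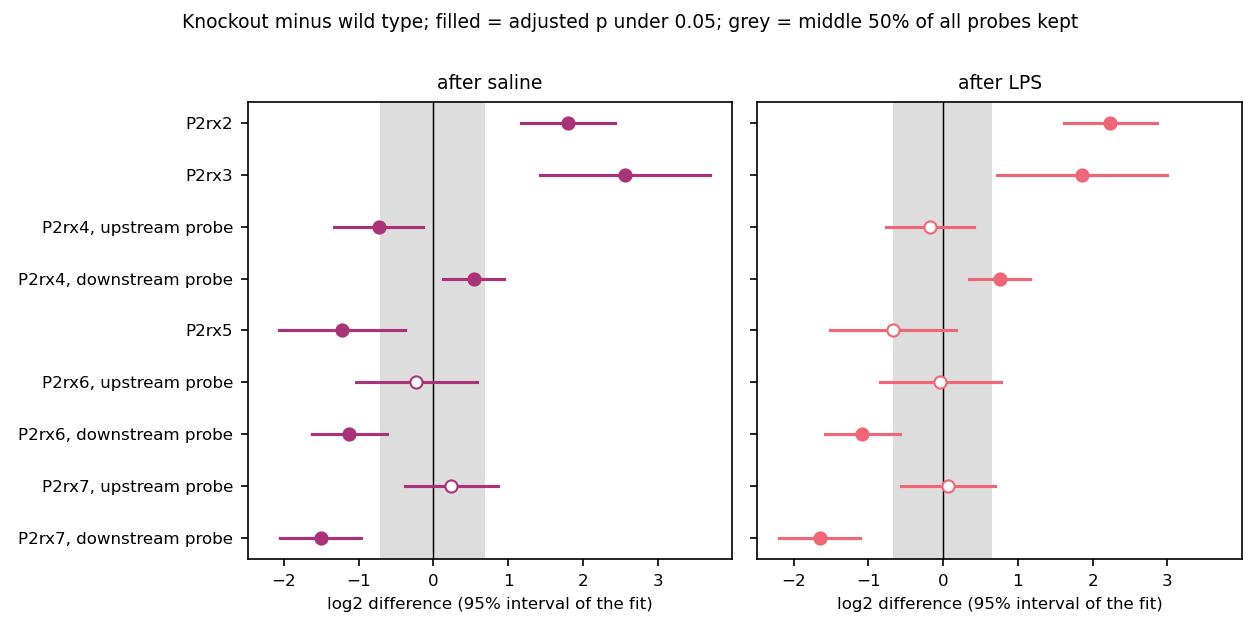
Log2 difference (x axis), knockout minus wild type, of the 9 tested P2X probes (y axis) after saline and after LPS, with the 95% interval of the fit as a line, filled points for adjusted p under 0.05 and the middle 50% of all probes kept in grey. P2rx2 reaches 2.24 and P2rx3 1.86 after LPS, and P2rx7 downstream −1.65. P2rx5 and P2rx6 downstream passed the filter on dim probes through wild-type groups only, where they were high. Their filled points are a description and not a test.

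P2rx7, the targeted gene, was read by a pair of probes that differed in outcome. On the downstream probe the wild-type saline arrays read −0.15, 0.14, 0.78 and 0.90 and the wild-type LPS arrays 0.14, 0.28, 0.07 and 0.70. Knockout arrays read −0.80, −0.91, −1.57 and −1.08 after saline and −1.08, −1.21, −1.69 and −1.43 after LPS. Every knockout array lay below every wild-type array, the spot was well above background on all 16, and the order of group means ran from wild-type saline (0.42 ± 0.51, SD, n = 4) and wild-type LPS (0.30 ± 0.28) to knockout saline (−1.09 ± 0.34) and knockout LPS (−1.36 ± 0.27). Neighbours in that order within a genotype did not differ beyond their spread. The genotype difference was −1.51 ± 0.25 (SE, adjusted p = 0.000211) after saline and −1.65 ± 0.25 (adjusted p = 0.000107) after LPS, which ranked 2954 and 2092 by p among all probes. A signal well above background thus remained on every knockout array, at about 2.85-fold and 3.14-fold lower than in wild type.

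Within wild type, P2rx7 downstream was higher on both saline arrays of slide 2 than on both of slide 1. The oligodendrocyte marker mean was 0.31 and 0.32 on the slide 1 saline arrays and 1.52 on each of the slide 2 ones. The microglial marker mean was −0.75 and −0.89 on slide 1 against −0.02 and −0.13 on slide 2. All other marker lists measured were also higher on slide 2, except neutrophil and monocyte markers (−0.52 and −0.38 against −3.99 and −3.32). Among the wild-type LPS arrays, 0.14 of P2rx7 stood beside an oligodendrocyte mean of 1.32, 0.28 beside 0.23, 0.07 beside −0.22 and 0.70 beside 0.98. Whether P2rx7 and these markers are linked was not tested. Without wild-type saline arrays 1 and 2, an alternative chosen once results were known, the saline difference was −1.94 (adjusted p = 0.000158). With the base composition of probes corrected, also chosen later, it was −1.41 (adjusted p = 0.00072).

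The upstream P2rx7 probe gave a dimmer signal with no separation of the genotypes. Wild-type saline arrays read −4.85, −3.20, −3.87 and −3.70, and wild-type LPS arrays −4.28, −3.90, −4.28 and −3.53. Knockout arrays read −3.26, −3.86, −3.90 and −3.64 after saline and −4.02, −3.58, −4.18 and −3.95 after LPS, within the wild-type range throughout. The spot was well above background on 14 of 16 arrays, all but 1 wild-type saline and 1 knockout LPS array. The difference was 0.24 (95% interval −0.38 to 0.86, adjusted p = 0.51) after saline and 0.06 (−0.56 to 0.69, adjusted p = 0.875) after LPS, intervals that leave out a fall as large as that of the downstream probe. With normexp the difference after saline was 1.40 (adjusted p = 0.00178). Normexp also moved the median of all probes from −0.02 to 0.51 after saline, and relative to that median P2rx7 upstream was 0.89 higher. As the allele is not named, the position of these probes relative to the deletion is unknown, and neither can serve as a check of the genotype labels.

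P2rx2, which encodes a slowly desensitising subunit of neuronal channels, was the family member most clearly higher in knockout by p in both states. Wild-type arrays read −4.35, −4.04, −3.14 and −3.98 after saline and −5.06, −4.81, −5.14 and −4.17 after LPS. Knockout arrays read −1.58, −2.53, −2.27 and −1.95 after saline and −2.77, −2.48, −2.89 and −2.08 after LPS, all above the highest wild-type array. The spot was well above background on every array except 1 of wild-type LPS. Its level was 1.80 ± 0.30 higher (SE, adjusted p = 0.000179) after saline and 2.24 ± 0.30 higher (adjusted p = 3.02e-05) after LPS, or 3.47-fold and 4.71-fold. The authors' deposited table lists P2rx2 as 3.48-fold up after saline and 4.72-fold up after LPS. The call was kept in each of the 27 other settings it could be fitted in, at 1.48 to 2.04 after saline and 1.21 to 2.45 after LPS.

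P2rx3, the fast desensitising subunit best known from pain-sensing neurons, was dim in wild type and uniform in knockout. Wild-type saline arrays read −6.52, −6.64, −4.31 and −4.74, and wild-type LPS arrays −4.08, −4.86, −6.54 and −4.10. Knockout saline arrays read −3.31, −3.11, −2.78 and −2.75 and knockout LPS arrays −3.01, −3.15, −2.94 and −3.05. The knockout arrays lay within a narrow band above all wild-type arrays, while only 2 of 4 wild-type saline and 3 of 4 wild-type LPS spots were well above background. P2rx3 was 2.56 ± 0.54 higher in knockout (SE, adjusted p = 0.00114) after saline and 1.86 ± 0.54 higher (adjusted p = 0.0101) after LPS. Both dim wild-type saline arrays are the pair left out in the alternative above, and without them the difference after saline was 1.54 (adjusted p = 0.0313). The authors' deposited table lists P2rx3 as 5.94-fold up after saline and 3.61-fold up after LPS. The other P2rx3 probe, at chr2:84836382-84836441, was well above background on 0 of 16 arrays and was not tested.

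P2rx4 encodes a subunit of microglial and neuronal channels that cycles through lysosomes, and its gene is the neighbour of P2rx7. The downstream probe read −2.41, −2.37, −2.20 and −2.46 in wild-type saline and −2.51, −2.99, −2.66 and −2.07 in wild-type LPS. In knockout it read −1.49, −2.17, −1.80 and −1.83 after saline and −1.62, −1.83, −1.80 and −1.96 after LPS. Knockout lay above wild type without overlap in each state, by 0.54 ± 0.19 (SE, adjusted p = 0.0302) after saline and 0.75 ± 0.19 (adjusted p = 0.00513) after LPS. The upstream probe went the other way after saline. It read −3.00, −3.04, −3.08 and −3.45 in wild-type saline against −4.13, −4.17, −3.85 and −3.34 in knockout saline, where 1 knockout array overlapped the wild-type range. The wild-type LPS arrays read −3.00, −3.26, −4.02 and −3.33 and the knockout LPS arrays −3.12, −3.48, −3.36 and −4.35, with wide overlap. Its difference was −0.73 ± 0.28 (adjusted p = 0.038) after saline and −0.18 ± 0.28 (adjusted p = 0.624) after LPS, and with normexp it turned to 0.92 and 0.28. Both calls after saline were lost with slide as a random block (adjusted p = 0.0681 downstream and 0.0643 upstream) and without wild-type saline arrays 1 and 2 (0.128 and 0.197). Each was also lost on leaving out 1 array, for any of 6 of the 8 saline arrays (adjusted p up to 0.0717 downstream and 0.0964 upstream). The downstream call after LPS was kept in all 28 other settings (0.61 to 0.92). Both P2rx4 probes were well above background on all 16 arrays, so the probes of this gene disagree in direction after saline and neither call after saline was kept in all settings run.

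P2rx5, whose mouse channel carries small currents, was seen in wild type and hardly in knockout. Wild-type arrays read −4.39, −4.62, −4.94 and −4.85 after saline and −3.61, −4.06, −4.77 and −4.53 after LPS, well above background on all 8. Knockout arrays read −4.63, −6.30, −5.86 and −6.89 after saline, none of the 4 well above background, and −4.40, −4.61, −5.08 and −5.57 after LPS, with 1 of 4 well above it. Knockout saline overlapped wild-type saline through 1 array. The probe passed the filter on dim probes through the wild-type groups, where it was high, so its difference is given as a description and not as a test. The fitted value was −1.22 ± 0.40 (SE) after saline, or at least 1.15-fold lower given the dim knockout spots, and −0.67 ± 0.40 after LPS. With normexp these turned to 1.33 and 0.12, and the call counted above for saline was lost without knockout saline array 2 (adjusted p = 0.0501), without knockout saline array 4 (0.0636) and without wild-type saline arrays 1 and 2 (0.13).

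P2rx6, a subunit that mostly works in mixed channels, was near the limit of detection. Its downstream probe read −5.39, −5.23, −4.81 and −4.94 in wild-type saline and −5.59, −5.39, −5.58 and −5.15 in wild-type LPS, well above background on 4 and on 2 arrays. The knockout arrays read −6.08, −6.06, −6.20 and −6.51 after saline and −5.93, −6.46, −6.46 and −7.20 after LPS, 0 of 8 well above background. The groups did not overlap. The probe passed the filter through wild-type saline alone, where it was high, so the fitted differences of −1.12 ± 0.23 (SE) after saline and −1.08 ± 0.23 after LPS are a description and not a test, and with normexp they turned to 1.29 and 0.30. No fold is given, because the dim knockout spots allow no bound above 1. The upstream P2rx6 probe was between −5.44 and −2.90 in wild type and between −4.98 and −4.29 in knockout, and was not called (−0.23, adjusted p = 0.639, and −0.04, adjusted p = 0.946). It too passed the filter through wild-type saline alone, so these values are also a description and not a test. With normexp that upstream probe was 1.52 higher in knockout after saline and 0.61 higher after LPS (adjusted p = 0.173). P2rx1, the channel of smooth muscle and platelets, had a single probe at chr11:72828186-72828245 that was well above background on 0 of 16 arrays, and it was not tested.

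**Figure D3:**
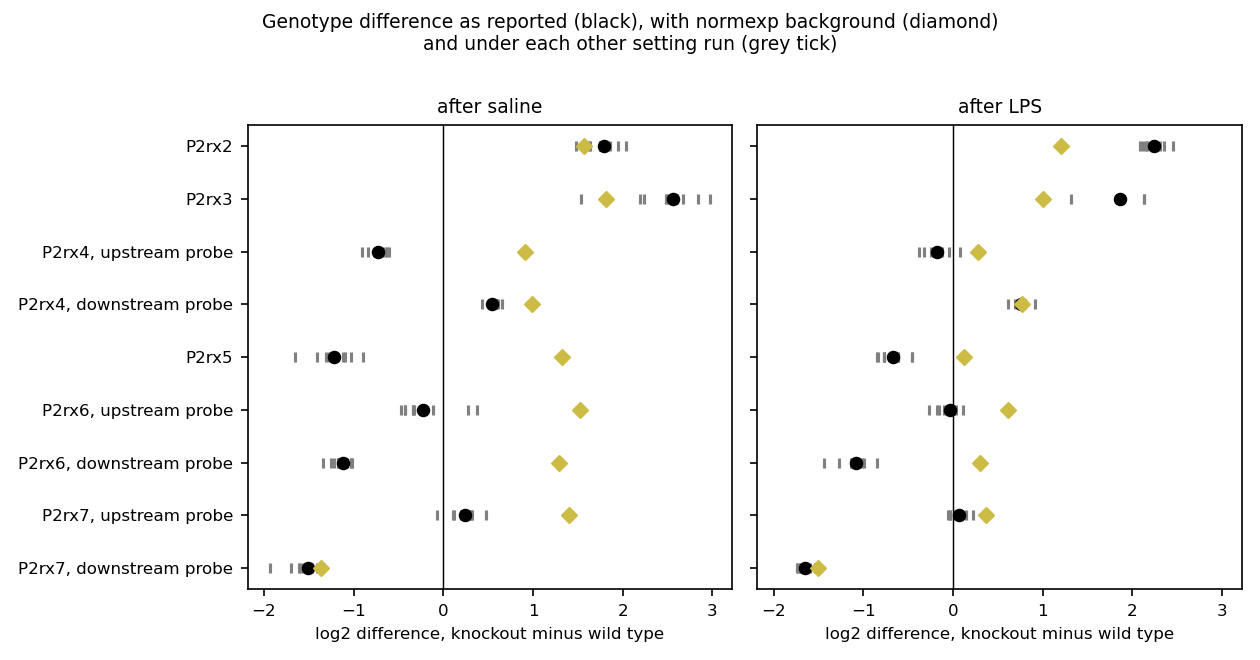
Log2 difference, knockout minus wild type (x axis), of each tested P2X probe (y axis) after saline and after LPS, as reported (black point), with normexp background correction (diamond) and under each other setting run (grey tick). P2rx2, P2rx3, P2rx4 downstream and P2rx7 downstream keep their side of 0 in every setting, and the diamonds of P2rx5, P2rx6 and P2rx4 upstream lie across 0 from their black points.

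The comparison of LPS with saline asked whether an acute immune challenge alters the family within each genotype. No P2X probe was called in either genotype. In wild type 0 of 9 probes were called, as were 0% of all probes (1777 probes had an unadjusted p under 0.05), and saline and LPS arrays overlapped for all 9 P2X probes where 4.61% of all probes had no overlap. P2rx2 had the smallest p, at −0.92 ± 0.30 (unadjusted p = 0.00695, adjusted p = 0.67): 3 of the 4 LPS arrays lay below every saline array, and the fourth lay inside the saline range. The authors' deposited table lists P2rx2 as 1.89-fold down with LPS in wild type. Within slide 1 the P2rx2 difference was −0.90 and within slide 2 it was −0.93 (adjusted p = 0.63 and 0.335). The other 8 wild-type differences ranged from −0.34 to 0.66. Without wild-type saline arrays 1 and 2, 2.29% of all probes (649) were called in wild type, and still 0 of 9 P2X probes. On those arrays the neutrophil and monocyte marker mean was −0.52 and −0.38, against −3.99 and −3.32 on the other wild-type saline arrays. The wild-type LPS arrays ranged from −2.04 to −0.44. What sets these saline arrays apart was not tested.

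In knockout 0 of 9 P2X probes were called, against 3.04% of all probes (863), and none of the 9 was without overlap, against 10.5% of all probes. P2rx5 had the smallest p, at 1.01 ± 0.40 (unadjusted p = 0.0228, adjusted p = 0.253), with values from spots of which 1 of 8 was well above background. Without knockout saline array 1 it was 1.44 and was called (adjusted p = 0.0263). P2rx2 was −0.48 ± 0.30 (adjusted p = 0.497). The downstream P2rx7 probe differed by −0.12 (95% interval −0.66 to 0.42) in wild type and −0.26 (−0.80 to 0.27) in knockout, and the downstream P2rx4 probe by −0.20 (−0.61 to 0.22) and 0.02 (−0.39 to 0.43). These intervals leave out a change of the size of the P2rx7 genotype difference, and each holds 0. Microglial markers were lower on average in the LPS group of each genotype, as given above, and 2 of 16 were called lower in knockout.

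**Figure D4:**
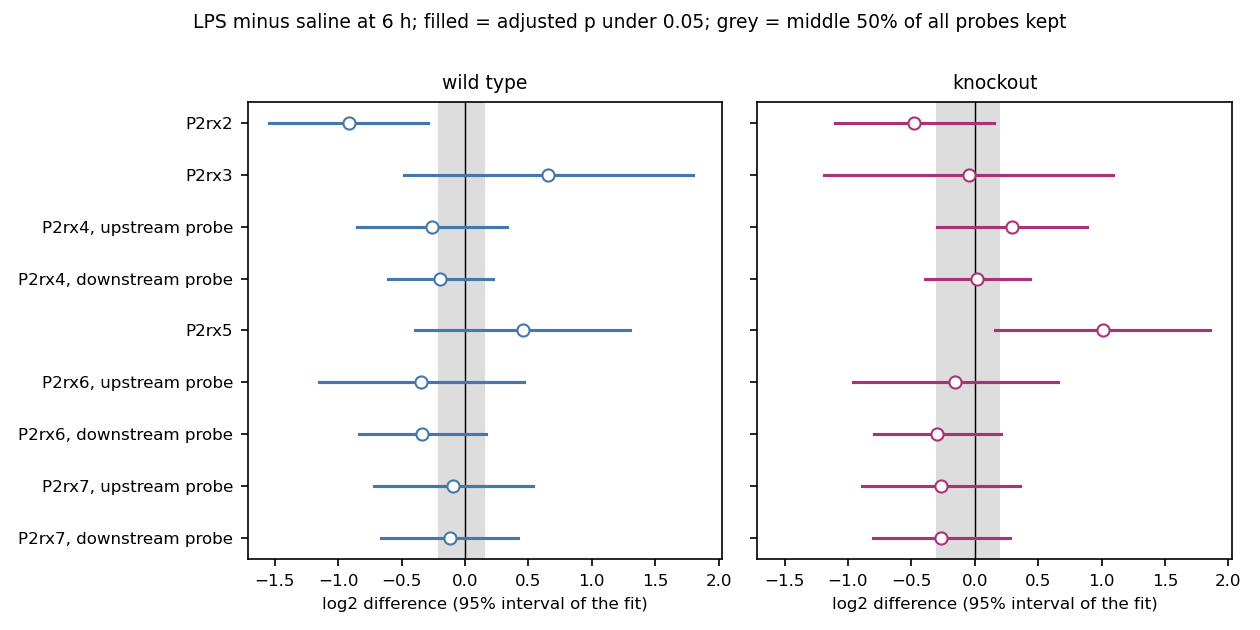
Log2 difference (x axis), LPS minus saline, of the 9 tested P2X probes (y axis) in wild type and in knockout, with the 95% interval of the fit as a line and the middle 50% of all probes kept in grey. All points are open because none had an adjusted p under 0.05, with P2rx2 at −0.92 in wild type and P2rx5 at 1.01 in knockout farthest from 0.

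The interaction asked whether the LPS response differed between the genotypes. It was called for 0 of 9 P2X probes (adjusted p 0.921 to 0.991), against 0.00706% of all probes (2 probes). P2rx3 had the largest interaction by size, −0.70 ± 0.76 (SE), and P2rx4 upstream the smallest p, at 0.56 ± 0.39 (unadjusted p = 0.178). A difference in the LPS response of a P2X gene was not detectable with these arrays.

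The 3 probes that were well above background on all 16 arrays allowed a search for genes that varied alike within groups, by the Pearson correlation of deviations from the group means over 16 arrays. P2rx7 downstream was most like Marchf8 (r = 0.946), Dph7 (0.936) and Crocc (0.930). P2rx4 downstream was most like 1700020L24Rik (0.922), Osbp2 (0.886) and Gpha2 (0.874), and P2rx4 upstream most like Cnksr3 (0.947), Pygb (0.887) and Lrrc57 (0.886). These are the highest values among 17608 or 17609 candidate probes, on arrays that also share slides and scaling, and serve as a description. Both P2rx4 probes correlated with each other at 0.24, both P2rx7 probes at 0.56 and both P2rx6 probes at −0.22. For P2rx4 and P2rx7 these values lie below those of the leading probes of other genes. Those were picked as the highest of all candidates, so the comparison cannot decide how alike probes of the same gene are. No leading probes were sought for P2rx6.

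Other genes of ATP signalling were counted from lists with 1 probe per gene. The lists hold P2Y receptors, adenosine receptors, ectonucleotidases and adenosine handling, ATP release, steps downstream of P2X7 and pore channels with other ligands. They were chosen with earlier results of these data known, so their counts are a description. Of 54 genes measured, 28 differed between the genotypes after saline (10 higher, 18 lower). Of all genes 50.8% were called there, 28.5% higher and 22.3% lower. After LPS 25 of the 54 differed (15 higher, 10 lower), where 47.1% of all genes were called, 25.9% higher and 21.2% lower. The median difference of the 54 genes was −0.37 after saline and −0.07 after LPS, beside 0.07 and 0.05 over all genes. After saline 1 of 6 P2Y receptors was called, lower, and 3 of 4 adenosine receptors, lower. The other lists had 9 of 13 ectonucleotidases and adenosine handling genes called (5 higher, 4 lower), 4 of 8 ATP release genes (1 higher, 3 lower), 6 of 16 genes downstream of P2X7 (2 higher, 4 lower) and 5 of 7 other pore channels (2 higher, 3 lower). After LPS the counts were 3 of 6 P2Y receptors (2 higher, 1 lower), 0 of 4 adenosine receptors, 8 of 13 ectonucleotidases and adenosine handling genes (4 higher, 4 lower) and 3 of 8 ATP release genes (2 higher, 1 lower). Downstream of P2X7, 6 of 16 genes were called after LPS (6 higher, 0 lower), and of the other pore channels 5 of 7 (1 higher, 4 lower).

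Among those with the smallest p after saline, the phosphatase Alpl (1.98 ± 0.25, SE, adjusted p = 2.27e-05), the nucleotide pyrophosphatase Enpp1 (1.45 ± 0.21) and the inflammasome sensor Nlrp3 (1.89 ± 0.28) were higher in knockout. Panx1, an ATP release channel, was 0.82 higher, Nek7, an NLRP3 partner, 1.38 and the cation channel Trpv2 1.44. The ADP receptor P2ry1 was 1.96 ± 0.37 on the log2 scale lower, with all 4 knockout arrays below all 4 wild-type arrays. Ank, which exports ATP and pyrophosphate, differed by −1.06, the phospholipase Pla2g4a by −1.62 and the AMP-hydrolysing enzyme Nt5e by −1.68. A further Enpp1 probe was not called. With normexp 8 of these 10 were still called after saline, while P2ry1 (−0.53, adjusted p = 0.0721) and Pla2g4a (−0.18, adjusted p = 0.583) were not. After LPS, Nlrp3 (2.17), Alpl (1.55), Panx1 (0.62) and Trpv2 (1.34) were again called higher and P2ry1 (−2.13) and Ank (−1.11) lower. Entpd3, an ectonucleotidase, was 0.89 higher there and the inflammasome adaptor Pycard 1.40, while the lysophospholipase Enpp2 differed by −1.38 and the proton-gated channel Asic2 by −0.71. Nlrp3 was well above background on 3 of 4 arrays in each wild-type group. The genotype comparisons use different arrays after saline and after LPS but 1 estimate of the spread.

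LPS was accompanied by changes in other purinergic genes in knockout. There 10 of 54 purinergic genes were called, 9 higher and 1 lower, where 3.41% of all genes were called, 2.37% higher and 1.04% lower. As the lists were chosen with earlier results of these data known, the larger share is a description and not a test. The median of the 54 was 0.18, beside −0.09 over all genes. P2ry2, a receptor for ATP and UTP, rose by 2.82 ± 0.43 (SE, adjusted p = 0.00288), from −4.27 to −3.28 on the saline arrays to −1.29 to −0.94 on the LPS arrays. P2ry6, a UDP receptor, rose by 1.52 and Adora2b, the low-affinity adenosine receptor, by 1.18. Nt5e rose by 1.62 and Ada, which removes adenosine, by 2.15, while the ATP-hydrolysing Entpd1 fell by 1.11 on 1 of its 2 probes. Among the genes downstream of P2X7, Il1b rose by 2.94 ± 0.62, the caspase Casp4 by 3.69 and Pla2g4a by 1.16 on 1 of its 2 probes. Il1rn, the antagonist of interleukin-1 receptors, was not well above background on any knockout saline array. It passed the filter on dim probes through the LPS groups only, where it was high. With the scanner software's background correction its rise was at least 11.8-fold, which is a description and not a test, though it is counted among the 10. None of 8 ATP release genes and none of 7 other pore channels was called. Over the same arrays the neutrophil and monocyte markers (5 of 11 measured, 1 called higher) had mean levels of −2.79 to −1.49 after saline and −0.62 to 0.90 after LPS. Perivascular macrophage markers (8 of 8 measured, 3 called lower) ranged from −1.96 to −1.51 and from −3.02 to −2.58, and endothelial markers (11 of 11 measured, 3 called lower) from −0.81 to −0.34 and from −1.56 to −1.48. The part of these shifts in the purinergic changes was not tested. With normexp 3 of the 54 were called, where 1.27% of all probes were. Of the 10 genes named here P2ry6 (1.16, adjusted p = 0.0374) and Entpd1 (−1.01, adjusted p = 0.0351) alone kept their calls. P2ry2 was then 0.87 (adjusted p = 0.101), Il1b 0.61 (0.254), Il1rn 1.09 (0.168), Casp4 2.33 (0.0516), Nt5e 0.72 (0.116), Ada 0.69 (0.201) and Adora2b 0.03 (0.939), and Pla2g4a turned to −0.22 (0.582). Without knockout LPS array 1, 2 or 3 the count of genes called was 5, 4 and 4, where 1.87%, 1.77% and 1.74% of all probes were called.

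**Figure D5:**
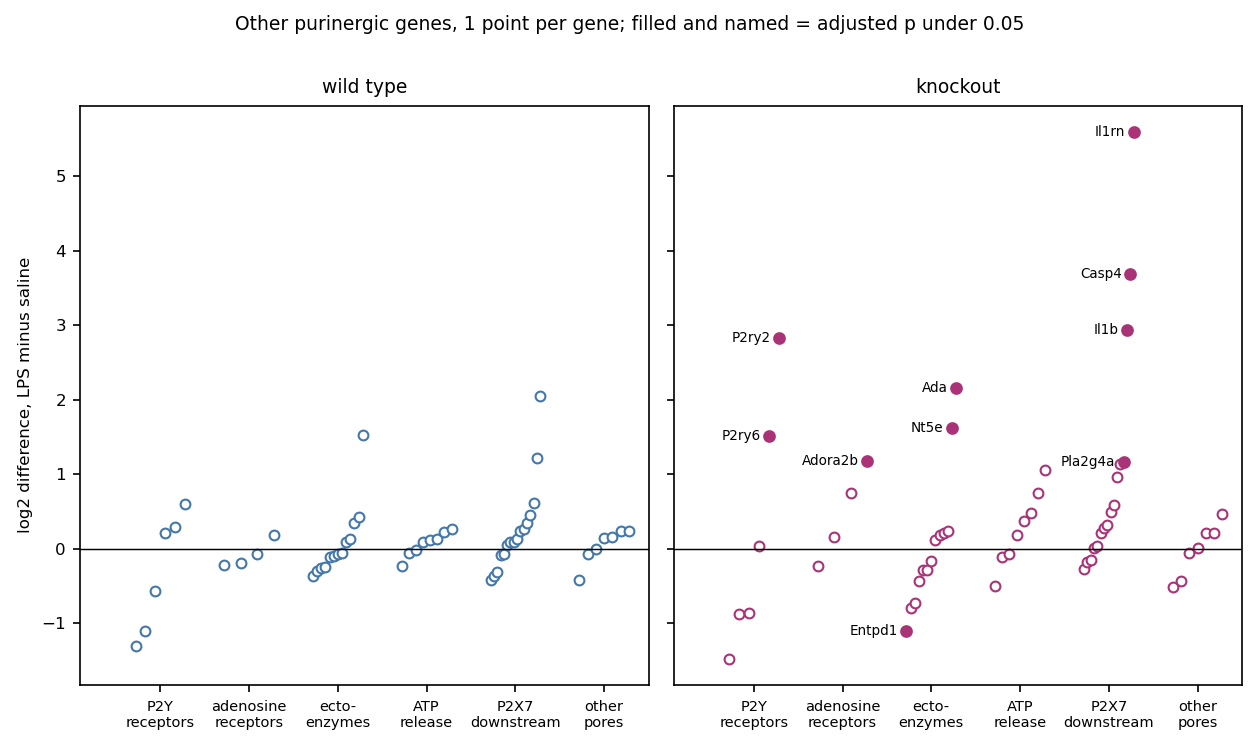
Log2 difference (y axis), LPS minus saline, of 54 measured purinergic genes in 6 lists (x axis) in wild type and in knockout, 1 point per gene, with filled and named points for adjusted p under 0.05. Filled points appear in the knockout panel alone, led by Il1rn, Casp4, Il1b and P2ry2. Il1rn passed the filter on dim probes through the LPS groups only, where it was high.

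In wild type 0 of these 54 genes were called, as were 0% of all genes. Without wild-type saline arrays 1 and 2, 5 of the 54 were called in wild type, where 2.29% of all probes were. They were Casp4 (3.32), Ada (2.86), Il1rn (4.89), P2ry2 (1.59) and Txnip (1.17). The value of Il1rn is again a description, as it passed the filter through the LPS groups only. P2X probes called in wild type remained 0 without these arrays. The interaction was called for 0 of the 54 genes, so a different response of the wider system in the 2 genotypes was not shown.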

How the data were processed

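RNA of whole amygdala was measured on 16 single-colour arrays, 4 per group. The submitters' processing notes name Agilent Feature Extraction 9.5. The deposited processed intensity of each spot had its background removed within the array, per the file headers. The authors also deposited tables of log2 group means and of fold changes between them (6 and 3 of 11 P2X probes are in these), and 32 columns of detection calls in them were not used. The authors' fold is a linear ratio with its direction in a separate column.

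Each level is the log2 processed intensity less that array's 75th percentile, without control spots. Outlier spots (from 0 to 79 on an array) were left out, none of them a P2X spot, and 0 spots were saturated. A probe was kept if well above background on 3 of 4 arrays of 1 group (28347 of 41174). Probes were named through RefSeq accessions (24844) or kept the file's name (16330). The fit of 4 group means used limma 3.58.1 in R 4.3.3 (with the packages data.table, version 1.17.8, and statmod 1.5.0), with Benjamini-Hochberg adjustment over all probes kept, and the code was tested on simulated data. Differences are log2 ± SE, and levels ± SD. An "at least" fold sets the bright group's mean against, per dim array, the higher of the probe's signal and the lowest signal well above background. Precision is limited by the number of arrays. No pair of arrays was a copy of another (median absolute difference at least 0.12 over 20703 probes). Lists used the probe with the highest mean per gene, and their named genes were up to 10 called per comparison by smallest p. Alternatives covered background correction, scaling, filters, slide, replicate number, single arrays, spread and base composition. Members and lists were chosen with earlier results of these data known.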

Additional observations from a re-analysis of the deposited data

Results flagged for a closer look

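Among 36 groups of 4 arrays checked (9 P2X probes in 4 groups each), 1 array stood apart from the others of its group. On the upstream P2rx6 probe, wild-type saline array 1 read −2.90, while the other 3 arrays of that group read −4.71, −5.00 and −5.02. Chance alone marks about 1 in 20 such groups. All 4 spots were well above background, and the same array was not apart from its group on the downstream P2rx6 probe (−5.39, against −5.23 to −4.81). The array is 1 of the pair left out in an alternative, and without that pair the genotype difference of the upstream P2rx6 probe after saline was 0.38 (adjusted p = 0.305) in place of −0.23. Both values are a description, as the probe passed the filter on dim probes through wild-type saline alone.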

How the results depend on the processing

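The genotype calls of P2rx2, P2rx3 and P2rx7 downstream kept their direction and their side of the threshold in every setting they could be fitted in (27, 27 and 28 settings per state), and so did P2rx4 downstream after LPS (28). Normexp background correction turned the sign after saline for P2rx5 (1.33), P2rx6 downstream (1.29), P2rx4 upstream (0.92) and P2rx6 upstream (1.52), and after LPS for P2rx6 downstream (0.30) and for 3 probes called on neither side: P2rx4 upstream (0.28), P2rx5 (0.12) and P2rx6 upstream (0.61). Relative to the all-probe median of 0.51 the first 4 were 0.82, 0.78, 0.41 and 1.01. Under it 9 of 9 P2X probes were called after saline, where 61.9% of all probes kept were called (52.1% in the reported fit). Of all those calls 75.6% were higher (51.0% in the reported fit). For LPS in knockout, normexp called 359 probes in place of 863, 49.3% of them higher in place of 69.5%. After LPS it called 8889 probes between genotypes in place of 13718. The offset of 50 it adds is a larger share of the signal on the dimmer knockout arrays, but the cause was not tested. With no filter 61.6% of calls after saline were higher. With probes well above background on all 16 arrays alone, which keeps 3 P2X probes, 3 were called after saline and 2 after LPS. Of all such probes 52% and 47.7% were called (575 probes with LPS in knockout). Without wild-type saline arrays 1 and 2, 4 P2X probes were called after saline, against 36.6% of all probes, and the cause was not tested. Leaving out 1 array in turn gave 5 to 7 P2X calls after saline, where 45.2% to 52.2% of all probes were called. After LPS it gave 5 in each case, where 41.7% to 56.6% of all probes were called. It gave 0 for LPS in wild type, 0 to 1 for LPS in knockout (1.74% to 3.64% of all probes) and 0 for the interaction. The purinergic count for LPS in knockout ranged from 4 to 11. Within slide 2 LPS called 2 purinergic genes and 227 probes (0.801% of all probes) in wild type. Within slide 4 it called 3 and 162 (0.571%) in knockout. The slides of a genotype differed: slide 1 gave 2 probes (0.00706%) in wild type and slide 3 gave 937 (3.31%) in knockout. With the replicate number as a block, 6 P2X probes were called after saline and 5 after LPS, against 49.2% and 45.2% of all probes. P2rx4 upstream was lost after saline there (adjusted p = 0.0571). Of same-number pairs of arrays from different groups, 2 of 24 correlated above 0.1 (−0.44 to 0.42), against 18 of 72 different-number pairs (−0.48 to 0.40). No pairing by number was seen. The check cannot exclude one, because deviations within a group are tied to each other. With only the arrays compared, P2rx4 downstream after saline was lost (0.0506). Apart from leaving out single arrays, 28 P2X differences that were called on neither side changed sign. Dim signal limits P2rx1, P2rx3, P2rx5 and P2rx6 most.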
